A study of Mus musculus with 6 samples.

Results

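The transcription factor complex of the megakaryocyte and red cell lineages was followed through 10 genes: Gata1, Gata2, Zfpm1, Tal1, Lyl1, Lmo2, Ldb1, Klf1, Gfi1b and Nfe2. They were taken by name, and every probe set whose platform annotation gives exactly 1 of these symbols was kept, which gave 12 of the 34945 probe sets with 1 symbol and 10 of 18193 genes. Of these genes, 8 had 1 probe set each, and Gata2 and Zfpm1 had 2. The measurements are 6 expression arrays of myeloid clone C6, a murine haematopoietic progenitor line grown from cells of the Rosa26rtTA C57BL/6J strain and carrying pRRL.TET.Evi1.IRES.EGFP, a construct that makes a codon-optimized murine Evi1 when doxycycline is present. Of the arrays, 3 hold RNA of cells kept in 1 µg/ml doxycycline, and 3 hold RNA of cells harvested 48 h after doxycycline was withdrawn. Both groups carry the same rtTA allele and construct and grew in the same medium, with murine stem cell factor at 50 ng/ml, murine interleukin 3 at 20 ng/ml, human FLT3 ligand at 50 ng/ml and human interleukin 11 at 50 ng/ml. The comparison asks how RNA levels differ once Evi1 expression is shut off in cells that the submitters call Evi1 dependent.

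GATA1 and GATA2 are zinc finger factors that bind the same short DNA words. GATA1 takes the place of GATA2 on many sites as progenitors mature towards red cells and megakaryocytes. ZFPM1, also called FOG1, does not bind DNA itself and works by contact with a GATA factor. TAL1 and LYL1 are related basic helix-loop-helix factors that pair with E proteins on E-box DNA, and LMO2 bridges such a pair to GATA1 or GATA2 while LDB1 holds the assembly together and joins it to others at distant sites. KLF1, GFI1B and NFE2 act beside this complex at red cell and megakaryocyte genes. Evi1, the product of the Mecom locus, is a zinc finger factor of blood stem cells and myeloid leukaemia.

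All log2 values below are robust multi-array average (RMA) values as deposited, and a difference is the withdrawal mean minus the doxycycline mean. A gene passed when limma's moderated test, adjusted by the Benjamini-Hochberg method over 45037 probe sets, gave an adjusted p under 0.05, and a gene with several probe sets was read from its brightest. Array medians lay between 5.22 and 5.27, correlations within groups between 0.995 and 0.998 and no arrays were identical. The first principal component (47.7% of the variance) separated the groups, while the second (31.9%) set withdrawal replicate 3 (score -22.99) and doxycycline replicate 1 (-11.43) apart from the other 4 arrays (2.10 to 12.45). The labels do not say whether replicates are separate cultures, so the p-values speak to array-to-array spread alone, and the number of arrays limits the precision. The line is 1 clone, and loss of doxycycline and loss of Evi1 cannot be told apart. The 3 Mecom probe sets lay near the bottom of the scale (group means 2.63 to 3.66) with differences of -0.10 ± 0.13 (SE), -0.04 ± 0.07 and 0.13 ± 0.09, and they do not check the labels because the construct is codon-optimized. The 5 pan-haematopoietic markers (Ptprc, Spn, Laptm5, Coro1a and Vav1) averaged 11.55 to 11.71 on the withdrawal arrays and 11.63 to 11.70 on the doxycycline arrays. Of 5 granulocyte precursor markers, Elane (0.74) and Ctsg (0.32) rose. All 5 were higher at an unadjusted p under 0.05, against 8.00% of all genes. This list averaged 13.80 to 13.83 after withdrawal against 13.42 to 13.45 with doxycycline. The part of these markers in the differences below was not tested. None of 4 T cell, 3 B cell, 5 stromal and 4 endothelial markers passed, with 1 B cell marker higher and 1 B cell and 1 stromal marker lower at an unadjusted p under 0.05. The B cell, stromal and endothelial lists averaged under the median of all probe sets, 5.24, on every array, and the T cell list averaged 5.50 to 5.58. In bulk RNA, fewer cells of a type and less RNA per cell cannot be told apart.

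The DNA just before the start sites was read for the letters that these factors bind. RefSeq (GRCm38.p6) gave 12 promoter windows for 8 of the genes. Lmo2 and Nfe2 had no entry. In the 250 bases before the start, the GATA words AGATAA or AGATAG or TGATAA or TGATAG, read on both strands as all words here were, stood in 4 of 12 windows (Gfi1b, Klf1, the first start of Tal1 and the third of Ldb1), against 26.5% of all 32851 windows. The E-box CANNTG stood in 5 of 12 (Gata1, Gfi1b, Klf1, Lyl1 and the third start of Ldb1) against 66.2%, and the KLF word CCACCC in 5 of 12 (Gata1, Lyl1, Zfpm1 and the first 2 starts of Ldb1) against 28.1%. With the 50 bases after the start added, the counts were 4, 7 and 6 of 12 against 29.8%, 72.3% and 31.5%. The word GACAAGATA, a core of the sites that Evi1 binds whose last letters can also begin a GATA word, stood in none of the 12 and in 0.107% of all windows. A match is a run of letters and not a bound site, and no match says only that the letters are not in this window.

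The windows of the genes that moved most and of Gata1 are printed 5′ to 3′ on the gene's own strand, from 250 bases before the start to the last base before it, in lower case with matches to the GATA, E-box and KLF words in capitals. These windows differ in the words they hold and in their share of G and C. Zfpm1 (chr8:122281891-122282140, plus strand, 73.2% G and C) held the KLF word at 243 and 107 bases before the start and neither other word. Tal1 at its first start (chr4:115056176-115056425, plus strand, 48.8%) held a GATA word at 205 bases. The second start of Tal1 (62.8% G and C), not printed, held none of these words in its window. Gata1 (chrX:7967911-7968160, minus strand, 54.0%) held an E-box at 198 and the KLF word at 53 bases.
Zfpm1: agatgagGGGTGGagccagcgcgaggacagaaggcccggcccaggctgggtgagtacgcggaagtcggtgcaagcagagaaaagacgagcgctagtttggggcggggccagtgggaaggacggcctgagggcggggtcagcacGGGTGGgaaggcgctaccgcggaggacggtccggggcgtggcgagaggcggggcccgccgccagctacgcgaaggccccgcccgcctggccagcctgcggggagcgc
Tal1: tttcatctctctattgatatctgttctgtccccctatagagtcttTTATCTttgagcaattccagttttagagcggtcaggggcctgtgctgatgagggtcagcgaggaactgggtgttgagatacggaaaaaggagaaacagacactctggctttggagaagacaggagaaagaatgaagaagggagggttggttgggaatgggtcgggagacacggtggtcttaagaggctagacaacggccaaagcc
Gata1: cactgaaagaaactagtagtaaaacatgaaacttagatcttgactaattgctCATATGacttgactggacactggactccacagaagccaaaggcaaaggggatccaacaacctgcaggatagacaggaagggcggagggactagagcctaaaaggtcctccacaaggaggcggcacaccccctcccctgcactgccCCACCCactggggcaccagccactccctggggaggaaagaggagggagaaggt

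Gfi1b and Klf1 held both a GATA word and an E-box in this window, and are shown for the spacing of these letters. The 125 bases nearest the start are printed for each in the same way. In Gfi1b (chr2:28621983-28622107, minus strand) the GATA word came first and 1 base lay between it and the nearer E-box, and in Klf1 (chr8:84901857-84901981, plus strand) the GATA word also came first and 15 bases lay between. The third start of Ldb1 also had 1 base between such a pair, with the E-box first.
Gfi1b: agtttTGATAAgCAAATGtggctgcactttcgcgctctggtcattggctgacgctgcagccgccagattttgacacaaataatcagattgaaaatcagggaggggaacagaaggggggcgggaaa
Klf1: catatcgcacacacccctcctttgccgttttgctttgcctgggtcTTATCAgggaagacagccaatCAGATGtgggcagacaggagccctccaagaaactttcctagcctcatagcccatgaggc

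After withdrawal, 3 of the 10 genes fell, none rose and 7 did not pass. Zfpm1 fell 2.94-fold, Tal1 1.57-fold and Lmo2 1.34-fold. Over all 18193 genes, 1.57% were lower and 1.20% higher by the same rule. At an unadjusted p under 0.05, 5 of the 10 were lower (Klf1 and Gata1 as well) and 1 was higher (Gata2), against 8.26% and 8.00% of all genes, shares that also stand behind the unadjusted counts of the lists below. In these same 6 genes the withdrawal and doxycycline arrays did not overlap, 5 lower and 1 higher, against 12.2% and 12.4% of all genes. The median difference of the 10 genes was -0.32, against 0.01 over all genes, and the median size was 0.32 against 0.09. Of the 12 probe sets, 3 were lower and none higher, against 1.18% and 0.790% of all probe sets, and all 12 lay above the median level. The genes were chosen with earlier results of these data known, so these counts describe them and are no separate evidence. The differences of the 12 probe sets, with their intervals, ran from -1.56 to 0.22, and 4 genes (Lyl1, Ldb1, Gfi1b and Nfe2) had intervals that include 0.

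**Figure D1:**
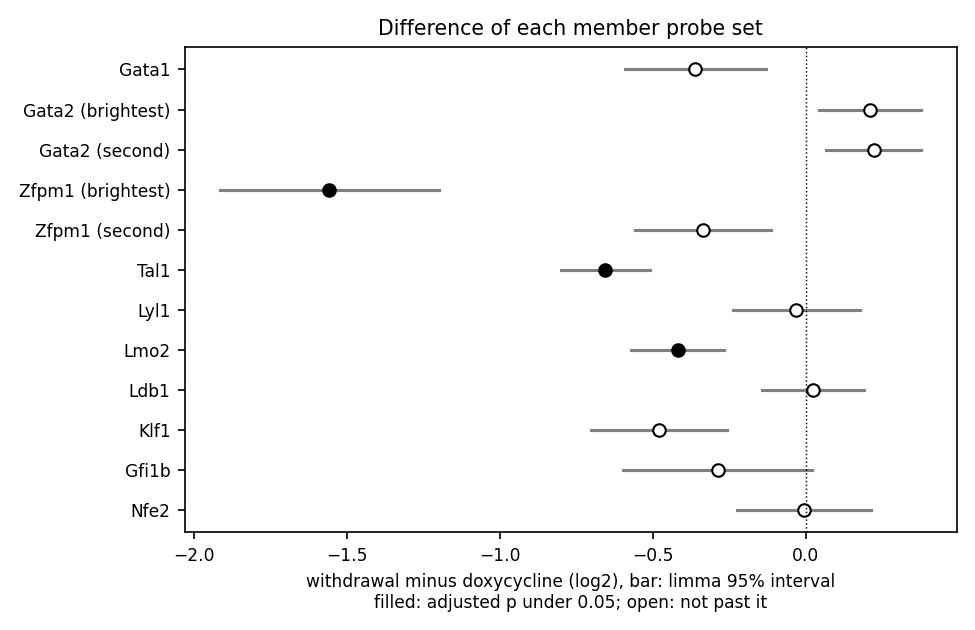
Withdrawal minus doxycycline (log2, x axis) for each of the 12 probe sets (y axis), with limma's 95% interval as a bar, n = 3 arrays per group. Filled points, adjusted p under 0.05, are the brighter Zfpm1 probe set (-1.56), Tal1 (-0.66) and Lmo2 (-0.42), and only the 2 Gata2 probe sets lie clearly to the right of 0.

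The GATA partner Zfpm1 had the widest gap. Its brighter probe set read 6.27, 6.46 and 5.84 on the withdrawal arrays and 7.61, 7.81 and 7.81 on the doxycycline arrays. All 3 withdrawal values lay below all 3 doxycycline values, and withdrawal replicate 3 was the lowest. The means were 6.19 ± 0.32 (SD, n = 3) and 7.75 ± 0.11, a fall of 2.94-fold (difference -1.56 ± 0.15 (SE), interval -1.91 to -1.20, limma adjusted p = 0.00370). This call was kept in each of 15 alternative settings. The second Zfpm1 probe set read 5.65, 5.59 and 5.63 against 5.83, 6.16 and 5.89, again without overlap. Its difference was -0.33 ± 0.10, interval -0.56 to -0.11, and did not pass (limma adjusted p = 0.159). The difference between these probe sets within an array moved by -1.22, so they did not record the same size of change. With the mean of both in place of the brighter, Zfpm1 differed by -0.95 and still passed (limma adjusted p up to 0.0288 over the 15 settings).

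Gata1, the factor that ZFPM1 works with in red cells and megakaryocytes, read 8.26, 8.27 and 8.00 after withdrawal and 8.47, 8.67 and 8.49 with doxycycline. The groups did not overlap, with withdrawal replicate 3 lowest. The means of 8.18 ± 0.15 and 8.54 ± 0.11 gave a difference of -0.36 ± 0.10, interval -0.59 to -0.13, which did not pass (limma adjusted p = 0.141). It passed in 1 of the 15 settings, a variance model with a trend and robust options (adjusted p = 0.0298).

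Gata2, the GATA factor of stem and progenitor cells and of mast cells, had 2 probe sets that both leaned the other way. The brighter read 10.62, 10.71 and 10.65 after withdrawal and 10.47, 10.53 and 10.36 with doxycycline, and the second read 9.41, 9.42 and 9.33 against 9.21, 9.18 and 9.10. In neither did the groups overlap. The differences were 0.21 ± 0.07 (interval 0.04 to 0.38, limma adjusted p = 0.233) and 0.22 ± 0.07 (0.07 to 0.38, limma adjusted p = 0.182), so neither passed, and each passed only with the trend and robust options (0.0362 and 0.0340). The difference between the 2 probe sets within an array moved by -0.01, so they recorded nearly the same change.

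**Figure D2:**
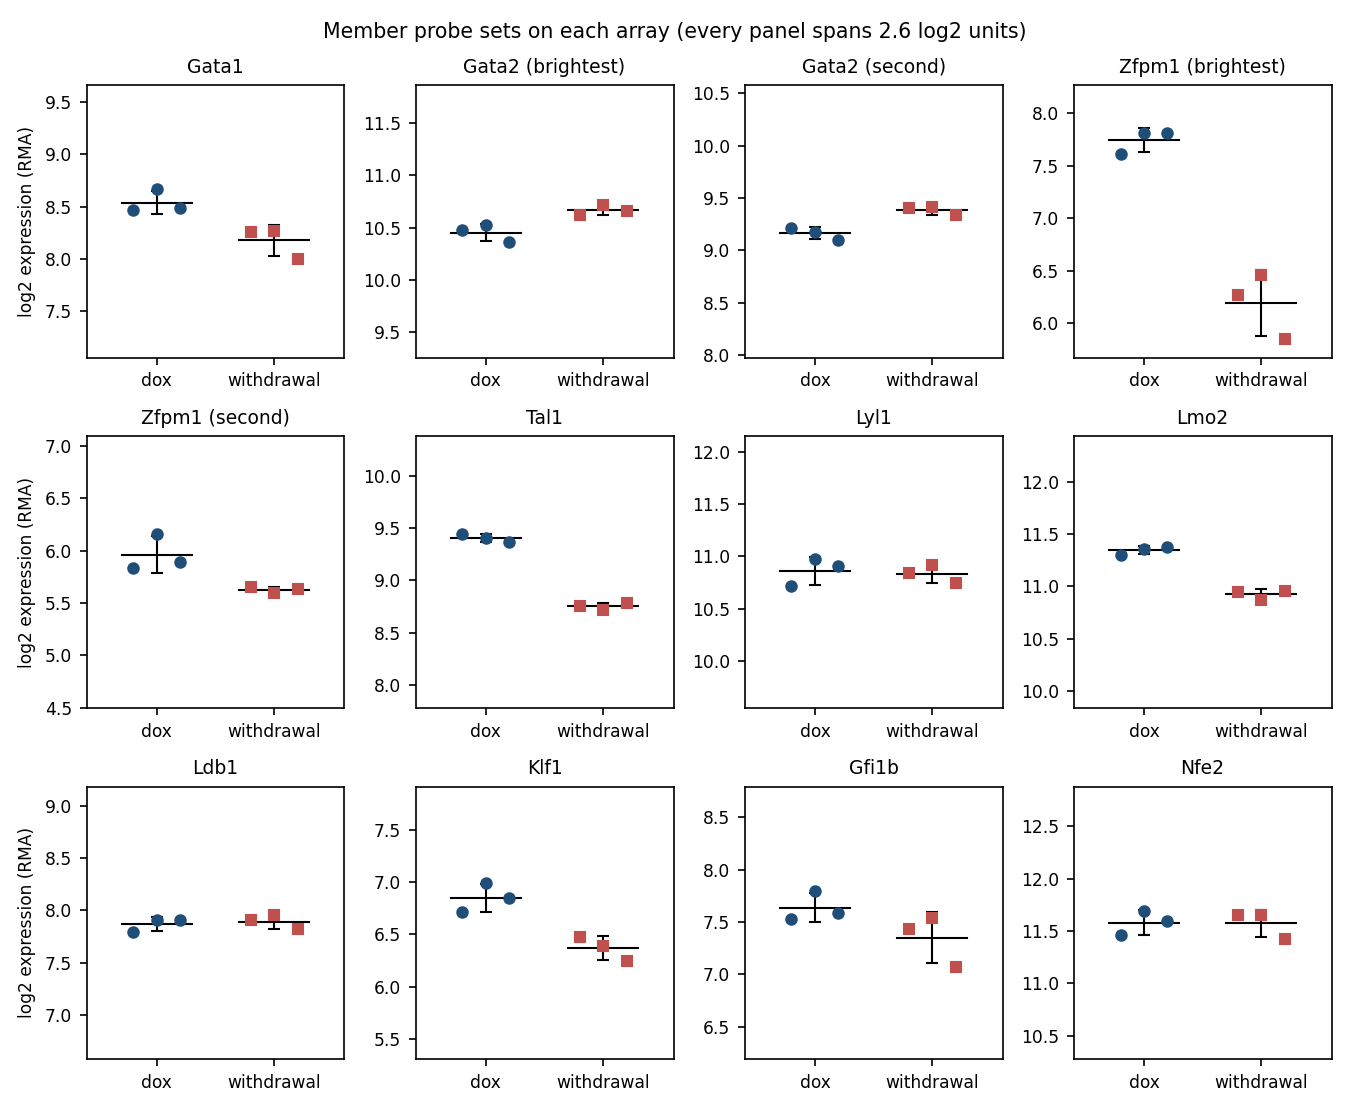
RMA log2 values (y axis, each panel with its own range but the same span) of the 12 probe sets on each array. Circles are the 3 doxycycline arrays and squares the 3 withdrawal arrays in replicate order, with lines at the mean and bars of 1 SD. Tal1 and Lmo2 show narrow, separate groups, Zfpm1 the widest gap, and Lyl1, Ldb1 and Nfe2 overlapping groups.

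Tal1, which binds E-box DNA together with an E protein, had the tightest groups. It read 8.75, 8.71 and 8.78 after withdrawal and 9.44, 9.41 and 9.37 with doxycycline. The 2 ranges stood apart by 0.59, while the values inside each group spanned 0.07. The means were 8.75 ± 0.03 and 9.41 ± 0.03 (SD, n = 3), a fall of 1.57-fold (difference -0.66 ± 0.06, interval -0.80 to -0.51, limma adjusted p = 0.00325). The call held with any 1 array left out (adjusted p 0.0115 to 0.0269) and was lost without both arrays that stand apart on the second component (difference -0.65, adjusted p = 0.0711), a fit with 2 arrays per group.

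Lyl1, the relative of Tal1 that can stand in for it in progenitors, read 10.84, 10.91 and 10.75 after withdrawal and 10.71, 10.97 and 10.91 with doxycycline. The groups overlapped, and the difference was -0.03 ± 0.09 with an interval of -0.24 to 0.18 (limma adjusted p = 0.926). A change of the size seen in Tal1 lies outside that interval.

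Lmo2, the LIM-only bridge between the helix-loop-helix pair and the GATA factor, read 10.95, 10.87 and 10.96 after withdrawal and 11.30, 11.36 and 11.37 with doxycycline. No value of one group reached the other, and the withdrawal values spanned 0.09 and the doxycycline values 0.07. The means of 10.92 ± 0.05 and 11.34 ± 0.04 gave a fall of 1.34-fold (difference -0.42 ± 0.06, interval -0.57 to -0.27, limma adjusted p = 0.0241). With 1 array left out in turn, the call survived only where that array was withdrawal replicate 3 (adjusted p 0.0499 to 0.118 over the 6 fits), and it was also lost without both arrays that stand apart (difference -0.46, adjusted p = 0.140). The difference stayed between -0.46 and -0.39 throughout.

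Ldb1, the scaffold that binds LMO2 and dimerises to loop distant DNA, read 7.90, 7.95 and 7.82 after withdrawal and 7.79, 7.90 and 7.90 with doxycycline. The groups overlapped, with a difference of 0.03 ± 0.07 and an interval of -0.14 to 0.19 (limma adjusted p = 0.922).

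Klf1, the factor that switches on adult beta globin and many other red cell genes, read 6.47, 6.39 and 6.25 after withdrawal and 6.72, 6.99 and 6.84 with doxycycline. Every withdrawal value lay under every doxycycline value. The means were 6.37 ± 0.11 and 6.85 ± 0.14, and the difference of -0.48 ± 0.10 (interval -0.70 to -0.26) did not pass (limma adjusted p = 0.0570). It passed in 5 of the 15 settings: only probe sets above the median level, repeated quantile normalization, the trend and robust options, array weights and averaged probe sets. It did not pass with any 1 array left out (adjusted p 0.0797 to 0.190).

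Gfi1b, a repressor that red cells and megakaryocytes need, read 7.43, 7.54 and 7.07 after withdrawal and 7.53, 7.79 and 7.58 with doxycycline. Withdrawal replicate 3 was well below the rest, and replicate 2 of withdrawal lay just above doxycycline replicate 1. The difference was -0.29 ± 0.13, interval -0.60 to 0.02 (limma adjusted p = 0.386), and -0.15 without withdrawal replicate 3. Nfe2, which with a small MAF protein drives platelet and globin genes, read 11.65, 11.65 and 11.43 against 11.46, 11.69 and 11.59. These groups overlapped, and the difference was -0.01 ± 0.09, interval -0.23 to 0.21 (limma adjusted p = 0.989).

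Within the groups, the same arrays were often the lowest or the highest. Withdrawal replicate 3 was the lowest of its group in 8 of the 12 probe sets and doxycycline replicate 1 in 9, while withdrawal replicate 2 was the highest in 8 and doxycycline replicate 2 in 9. The 2 arrays that were most often lowest are those apart on the second component. Such counts were not made over all probe sets, so they cannot be called particular to these genes. Without both, Zfpm1 still fell (-1.45, limma adjusted p = 0.0224), Gata1 differed by -0.31 (0.301), Klf1 by -0.48 (0.162) and Gata2 by 0.23 (0.415).

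Since GATA2 and GATA1, and LYL1 and TAL1, can occupy the same sites, the difference between each pair was taken within every array. Only the change of such a difference between groups can be read, because levels of different probe sets are not on 1 scale. Gata1 minus Gata2 was -2.36, -2.44 and -2.65 after withdrawal and -2.01, -1.86 and -1.87 with doxycycline. The balance thus moved by -0.57 towards Gata2, with no overlap. Tal1 minus Lyl1 was -2.09, -2.20 and -1.97 against -1.27, -1.57 and -1.54, a move of -0.62, again with no overlap. Each had an exact two-sided permutation p of 0.1, the smallest that 3 arrays against 3 allow, and 0.12 after Benjamini-Hochberg adjustment over 6 such differences. Over the arrays left out in turn, repeated quantile normalization and averaged probe sets, the moves ran from -0.63 to -0.49 and from -0.68 to -0.53.

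Both balances restate the differences of their genes given above, which were chosen with earlier results of these data known, so they are no separate evidence. The other 4 of the 6 differences were chosen after values had been seen. Gfi1b minus Gfi1 moved by -0.83 and Lmo2 minus Lmo1 by -0.89, both without overlap (exact permutation p = 0.1, adjusted 0.12). The last 2 were the differences between the probe sets of Zfpm1 (exact permutation p = 0.1, adjusted 0.12) and of Gata2 (0.9, adjusted 0.9).

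**Figure D3:**
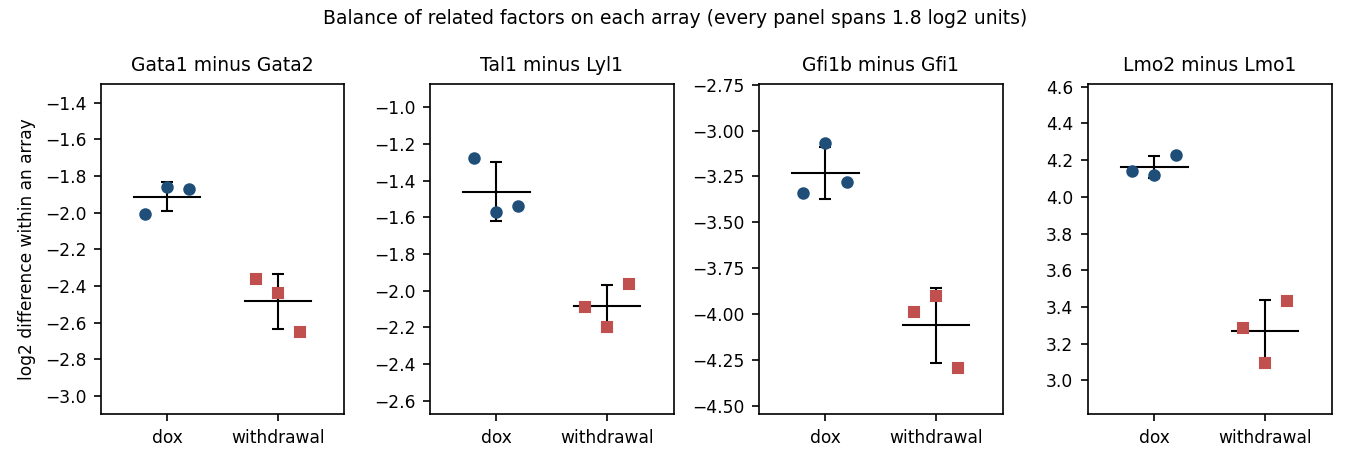
Log2 difference between related factors within an array (y axis; each panel has its own range but the same span) for 3 doxycycline (circles) and 3 withdrawal arrays (squares), with mean and 1 SD. In all 4 panels the withdrawal arrays lie below the doxycycline arrays, with a change of -0.57 for Gata1 minus Gata2, -0.62 for Tal1 minus Lyl1, -0.83 for Gfi1b minus Gfi1 and -0.89 for Lmo2 minus Lmo1. The Gfi1b and Lmo2 pairs were chosen after values had been seen, so their direction was known beforehand. The Gata1 and Tal1 pairs restate differences of genes chosen with earlier results of these data known.

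Of 10 proteins that bind into the complex, 1 gene fell and none rose, with 2 lower and 1 higher at an unadjusted p under 0.05 and a median difference of -0.07. Ssbp2, which shields LDB1 from breakdown, read 8.93, 8.97 and 8.93 after withdrawal and 9.42, 9.44 and 9.57 with doxycycline. The groups were far apart for their spread, and it fell by 0.53 on the log2 scale (SE 0.07, limma adjusted p = 0.0117), a call lost without withdrawal replicate 2, doxycycline replicate 2 or doxycycline replicate 3 (adjusted p up to 0.0596), and without both arrays that stand apart (0.118). The corepressor Cbfa2t3, also called ETO2, read 9.43, 9.36 and 9.14 against 9.73, 9.84 and 9.65. It did not overlap between groups, but its difference of -0.43 ± 0.10 did not pass (limma adjusted p = 0.0815), except in 4 of the 15 settings. Among the E proteins, Tcf3, Tcf4 and Tcf12, differences were -0.06, -0.21 and -0.07, and none passed. Ssbp3 (0.02), Ssbp4 (-0.15), Cbfa2t2 (-0.08), Runx1t1 (0.15, a dim probe set) and Lmo4 (0.19, limma adjusted p = 0.308) did not pass either.

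The 4 Id genes, whose products keep E proteins off DNA, all missed the threshold, with none at an unadjusted p under 0.05 and differences from -0.09 (Id3) to 0.16 (Id4); Id1 differed by -0.08 and Id2 by 0.07. The 8 small MAF, BACH and NFE2-like genes also gave no call and none at an unadjusted p under 0.05. Their differences ran from -0.11 (Bach1) to 0.08 (Nfe2l1), with Mafk, the partner of NFE2, at 0.07 and Mafg at 0.08. Of 18 subunits of the corepressors that GFI1B and ZFPM1 recruit, none passed, with 2 lower and none higher at an unadjusted p under 0.05 and a median difference of 0.00053. The widest differences were those of the NuRD subunits Chd3 (-0.26, limma adjusted p = 0.300) and Mta3 (-0.22, adjusted p = 0.204).

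Among 19 relatives of the 10 genes, 2 rose and none fell, with 3 higher at an unadjusted p under 0.05 and a median of 0.00016. Gfi1, the granulocytic relative of Gfi1b, read 11.42, 11.44 and 11.37 after withdrawal and 10.87, 10.86 and 10.86 with doxycycline. The groups were well separated, and it rose 1.46-fold (0.54 ± 0.06, limma adjusted p = 0.00639), a call kept with any 1 array left out but lost without both arrays that stand apart (0.0892). Lmo1, the relative of Lmo2, read 7.67, 7.77 and 7.53 against 7.16, 7.24 and 7.14. It rose 1.39-fold (0.47 ± 0.08, limma adjusted p = 0.0344), and with 1 array left out passed only without withdrawal replicate 3 (adjusted p up to 0.153). Of the 17 relatives that did not pass, Lmo4 (0.19) and Gata5 (-0.17) had the widest differences.

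Of 16 other blood transcription factors measured, 2 rose and none fell, with 6 higher and 1 lower at an unadjusted p under 0.05. Besides Gfi1, this was Cebpa, the main factor of granulocyte commitment, which read 9.97, 9.98 and 9.93 against 9.27, 9.26 and 9.12. It rose 1.67-fold (0.74 ± 0.07, limma adjusted p = 0.00307), kept with any 1 array left out and lost without both arrays that stand apart (0.0652). Irf8, a factor of monocytes and dendritic cells, differed by -0.53 ± 0.10 and missed the threshold (limma adjusted p = 0.0537), passing in 5 of the 15 settings. Cebpb differed by 0.30 (limma adjusted p = 0.113) and passed in 3.

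Genes of the lineages in which the complex works were read from 3 lists written from general knowledge. These and the lists above were written with earlier results of these data known, so their counts describe them and are no separate evidence. Of 28 red cell genes measured, 5 fell (17.9%, against 1.57% of all genes) and none rose, with 9 lower and 4 higher at an unadjusted p under 0.05 (8.26% and 8.00% of all genes) and a median of -0.06. The embryonic beta globin gene Hbb-y, whose probe set can read other globins, fell by 1.86 on the log2 scale. Its other probe sets gave differences of -1.91 and -1.57 (limma adjusted p = 8.4e-05 and 0.000346). Rhag of the red cell membrane (-2.22), the nuclear factor Hemgn (-1.14) and the carbonic anhydrase Car2 (-0.59) fell too. The water channel Aqp1, named after its value was seen, fell by 0.88. After withdrawal, Rhag (4.43 to 4.91) and Aqp1 (4.69 to 5.12) read under the median of all probe sets, 5.24. How far these genes fell is therefore not well measured. Alas2, which starts haem synthesis in red cells, differed by 0.37 (limma adjusted p = 0.0910). It passed as higher with array weights (limma adjusted p = 0.0330) and with gene means (0.0477). Hbb-b2 differed by -0.37 (limma adjusted p = 0.192) and its other probe set by -0.77 (0.0596). The mean of the Hbb-b2 probe sets differed by -0.57 and passed (limma adjusted p = 0.0384). The Alas2 probe set lay under that median on every array. Tfrc (0.30), Slc25a37 (0.35) and E2f2 (0.25), named after their values were seen, were also higher at an unadjusted p under 0.05 and did not pass. Leaving out 1 array gave 3 to 5 lower, the fewest without doxycycline replicate 3, where Car2 and Aqp1 were lost, and leaving out both arrays that stand apart also gave 3. Over all 15 settings, 3 to 6 were lower, and up to 2 rose in 4 of them. Globin probe sets annotated to several genes are not in these counts.

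Of 22 megakaryocyte and platelet genes measured, 5 fell (22.7%, against 1.57% of all genes) and none rose (1.20% of all genes). At an unadjusted p under 0.05, 7 were lower and 3 higher, and the median was -0.07. The granule adhesion receptor Selp read 5.96, 5.96 and 5.94 against 8.77, 8.67 and 8.73, a fall of 6.82-fold that held in all 15 settings (limma adjusted p up to 0.00244; difference -2.77, and -1.95 with the mean of its probe sets). The platelet chemokines Ppbp (-1.71) and Pf4 (-0.59), Gp9 of the von Willebrand factor receptor (-0.67) and the calmodulin-binding Nrgn (-0.51), named after its value was seen, also fell. Ppbp read 3.93 to 4.29 after withdrawal, under the median of all probe sets, and the deposited values carry no detection call, so how far it fell is not well measured. Itga2b (-0.35, limma adjusted p = 0.0776) and Gp5 (-0.33, limma adjusted p = 0.111) did not pass. Both passed with only probe sets above the median level, and Itga2b also with the trend and robust options, array weights and gene means. The 3 higher at an unadjusted p under 0.05 were Itgb3 (0.32), Rab27b (0.29) and F2rl2 (0.20). None of these passed, and they were named after their values were seen. Leaving out 1 array gave 2 to 4 lower. The count was 3 without withdrawal replicate 1, withdrawal replicate 2 or doxycycline replicate 1, and 2 without doxycycline replicate 2 or 3; Nrgn was lost each time and Gp9 in all but the fit without withdrawal replicate 3. Without both arrays that stand apart it was 2. Over all 15 settings, 2 to 6 megakaryocyte genes were lower, and up to 2 rose in 4 of them.

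Of 15 measured genes of mast cells, basophils and eosinophils, where GATA2 and GATA1 also act, 7 rose (46.7%) and 1 fell. Over all genes, 1.20% rose by the same rule, and the median of these 15 was 0.26. At an unadjusted p under 0.05, 8 were higher and 2 lower. The basophil protease gene Mcpt8 read 13.57, 13.56 and 13.56 after withdrawal and 12.19, 12.15 and 12.27 with doxycycline, and rose 2.57-fold (limma adjusted p = 0.000139). Ms4a2 of the IgE receptor rose by 1.16, eosinophil peroxidase Epx by 0.75 and Hdc, which makes histamine, by 0.66. Siglecf (0.72), Il5ra (0.54) and Prg2 (0.44), named after their values were seen, rose too, while the amine transporter Slc18a2 fell by 0.70. The Il5ra call, from a probe set under the median level on every array, was lost in each of the 6 fits with 1 array left out, and the Prg2 call was kept in 1 of them. The growth factor receptor Kit differed by 0.26 (limma adjusted p = 0.277) and the mast cell protease Cma1 by -0.19 (limma adjusted p = 0.253). Leaving out 1 array gave 5 or 6 higher, and leaving out both arrays that stand apart gave 2, Mcpt8 and Ms4a2. The call of Slc18a2 was lost without doxycycline replicate 1 or 3 and without both arrays that stand apart. Several genes of these lists are also expressed by other myeloid cells, and whether the complex acts on them in C6 was not measured here.

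**Figure D4:**
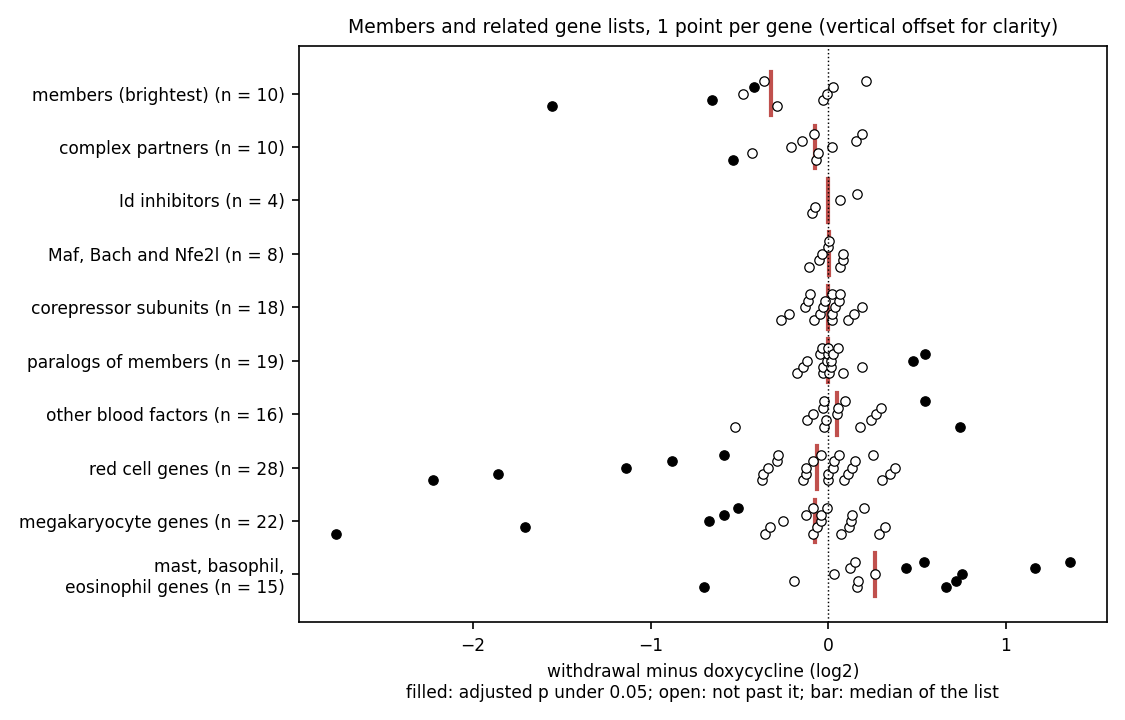
Withdrawal minus doxycycline (log2, x axis) of every measured gene, 1 point per gene, in the 10 genes of the complex and 9 related lists (y axis; n is the number of genes measured), with bars at list medians and filled points for adjusted p under 0.05. Filled points lie to the left in the red cell and megakaryocyte lists, 5 of 28 and 5 of 22, and mostly to the right in the mast cell, basophil and eosinophil list, 7 of 15 with 1 to the left.

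For each gene that fell, the other genes with the most similar profile were found by the root mean square distance between log2 profiles centred on their means, over 6 arrays. For Tal1 these were Heatr5a (0.0432), Ccdc112 (0.0447) and Snap47 (0.0447), for Lmo2 Slc39a1 (0.0256), Mycn (0.0258) and Cd68 (0.0265), and for Zfpm1 2900026A02Rik (0.113), Spns2 (0.137) and Scd3 (0.166). The genes of the complex were not each other's nearest. In order of distance from Tal1, Lmo2 was number 115, Klf1 number 197 and Gata1 number 475 of all other genes.

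The 10 genes were set out once more under the 15 alternative settings. Zfpm1 passed in every setting, Tal1 in 14 and Lmo2 in 8, and these 3 kept a negative difference in all. Klf1, Gata1 and Gfi1b were negative and Gata2 positive in all 15 too, while Nfe2, Ldb1 and Lyl1 moved to either side of 0.

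**Figure D5:**
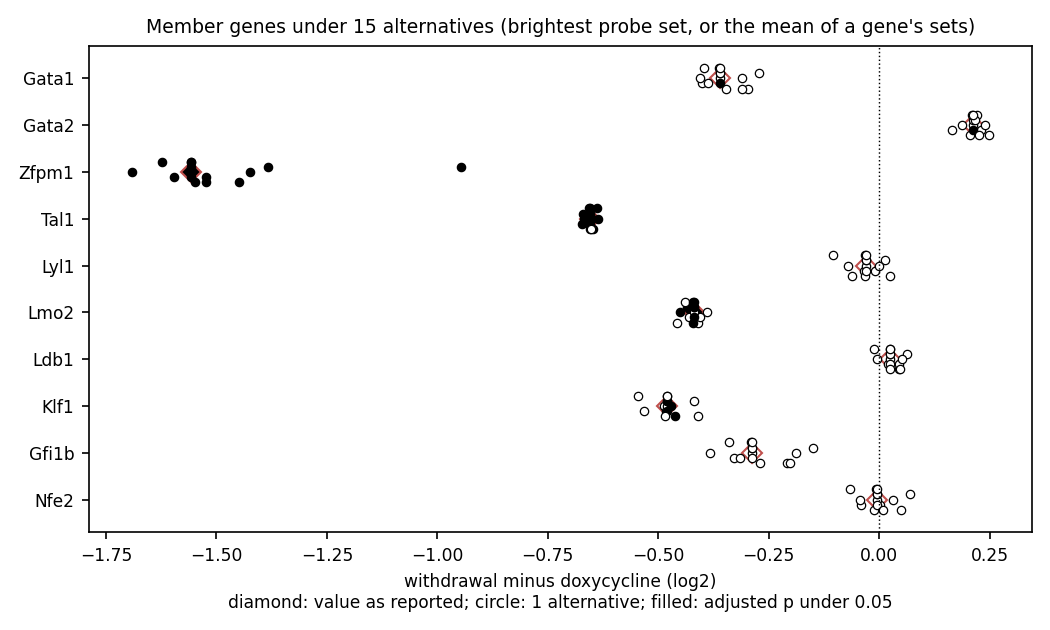
Withdrawal minus doxycycline (log2, x axis) of the 10 genes (y axis) as reported (diamond) and in each of 15 alternative settings (circles, filled where adjusted p is under 0.05). The lone Zfpm1 circle at -0.95 is the mean of its 2 probe sets; Nfe2, Ldb1 and Lyl1 straddle 0.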

How the data were processed

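Total RNA of the 6 samples was amplified by SPIA before biotin labelling, as the labels' protocols state. Values in the deposited table are on the log2 scale and were made by the authors with RMA, per the submitters' processing notes; its version and the chip definition were not given in the sources used here, and RMA shrinks differences of dim probe sets. Of 45101 rows, 64 control probe sets were left out; 34945 of the rest have 1 gene symbol in the platform annotation, 932 have several and 9160 none, and genes were named from the first only. limma 3.58.1 in R 4.3.3 fitted withdrawal against doxycycline on all 6 arrays (4 residual and 3.545 prior degrees of freedom), with Benjamini-Hochberg adjustment over 45037 probe sets. No depth applies to arrays.

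The members and lists were chosen with earlier results of these data known. Lists covered 146 different genes, 135 of them measured. Every member was named with every probe set; in other lists, up to 4 genes with the smallest adjusted p among those that passed, up to 2 of the widest differences among those that did not, and any gene of a list of at most 12, plus 3 most similar profiles for each member that passed. Balances were tested by exact permutation over arrays. The fit was tested on simulated data, with changes added to probe sets above the median level. It recovered 91% of 100 changes of 1 log2 unit and 44% of 100 changes of 0.5. A change of 0.5 can thus often be missed. Promoters were searched with Python 3.11.15, from RefSeq windows. Replicate numbers did not show pairing of the arrays, so the main fit has no block. The alternatives were each array left out, a replicate block, a dim filter, median centring, repeated quantile normalization, trend and robust options, array weights, gene means, no _x_at or _s_at probe sets and, chosen after seeing the data, no withdrawal replicate 3 or doxycycline replicate 1.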

Additional observations from a re-analysis of the deposited data

How the results depend on the processing

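The count of 3 member genes and 3 member probe sets lower and 0 higher was within 1.5 times in every alternative but 2. With the trend and robust options, 5 member genes were lower and 1 higher, and 5 member probe sets lower and 2 higher; without the pair of arrays apart on the second component, 1 member gene and 1 member probe set was lower. Small differences that passed nowhere changed sign: with 1 array left out, Ldb1 ran from -0.0123 to 0.0624, Nfe2 from -0.0666 to 0.0698 and Lyl1 from -0.105 to 0.0241, and Nfe2 was 0.0302 with array weights and 0.00863 without the pair of arrays. With the replicate block, 2 member genes and 2 member probe sets were lower and 0 higher, Lmo2 (limma adjusted p = 0.101) being lost, as were Gfi1 (0.0520), Aqp1 (0.0542), Ssbp2 (0.0654), Gp9 (0.0654), Lmo1 (0.0801), Prg2 (0.0879), Il5ra (0.0961) and Nrgn (0.137); deviations of same-numbered arrays correlated at -0.304, 0.460 and -0.0326, so the numbers do not show pairing. Over all probe sets, 530 were lower and 356 higher, against 197 and 94 with the block, 173 to 346 and 88 to 256 with 1 array left out, 1082 and 862 above the median level, 1389 and 1071 with the trend and robust options, 962 and 758 with array weights, and 94 and 28 without the pair of arrays. The median difference of all probe sets was 0.0092, and 0.0075 and 0.0064 under the other scalings. Signal limits Mecom, Runx1t1 and other dim probe sets.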

Other observations

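Globins are the most abundant products of red cells, and some of their probe sets here carry several symbols, so the red cell count above leaves these out and no single gene can be named from them. Of 4 probe sets annotated to several globin genes, 3 carry both alpha globin symbols and 1 carries 4 beta globin symbols, and all 4 fell. The brightest alpha globin probe set read 10.11, 10.10 and 10.08 after withdrawal and 12.77, 12.71 and 12.74 with doxycycline, a fall of 6.25-fold (limma adjusted p = 2.9e-06). The other 2 alpha globin probe sets fell 7.11-fold and 7.05-fold, with no overlap between groups. The beta globin probe set read 12.09, 12.15 and 12.31 against 13.24, 13.09 and 13.20 and fell 1.99-fold (limma adjusted p = 0.00192). All 4 calls held with any 1 array left out and without withdrawal replicate 3 and doxycycline replicate 1 together (adjusted p up to 0.0324). These probe sets were looked at after other values had been seen.

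Alpha globin probe sets with a single symbol read differently. That of Hba-a1 read 3.99 to 4.28 on all 6 arrays, a dim level, with a difference of 0.03 (limma adjusted p = 0.927), and that of the embryonic Hba-x differed by 0.02 (limma adjusted p = 0.974). That of Hba-a2 read 5.48, 5.49 and 7.87 after withdrawal and 7.87, 5.47 and 6.34 with doxycycline, high on withdrawal replicate 3 and doxycycline replicate 1, the arrays apart on the second component, and its difference of -0.28 ± 0.77 did not pass (limma adjusted p = 0.921). The values of a probe set of the ribosomal protein gene Rpl27a were also highest on these 2 arrays (8.97, 8.87 and 12.03 against 11.92, 9.03 and 9.96), as were those of 2 Aldh2 probe sets (7.12, 6.81 and 10.25 against 10.38, 7.02 and 8.29 in the first, 6.79, 6.90 and 10.13 against 10.13, 7.23 and 8.07 in the second), while the brightest Aldh2 probe set stayed between 12.47 and 12.59 on all 6 arrays. These genes were also picked after their values were seen, and the cause was not tested.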
